A study of Homo sapiens with 6 samples.

Results

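The genes for the subunits of RNA polymerases I, II and III were followed in HCT116 cells, a human colorectal cancer line, after POU2F1 had been lowered by siRNA. Members were taken by symbol, as every annotated row beginning with POLR1, POLR2 or POLR3 and a further letter, plus CRCP, which encodes a subunit of the third enzyme under another name. This gave 35 of 20474 annotated genes, with 34 distinct symbols because POLR2J3 is listed under 2 identifiers. The siPOU2F1 group, given the genotype POU2F1 knockdown, held 3 libraries of cells transfected with an siRNA against POU2F1, and the sicontrol group, given the genotype WT, held 3 libraries of cells that received a non-targeting siRNA. Both groups are the same cell line, were grown in culture plates and were collected 48 h after transfection, and polyA RNA was sequenced from 2 µg of total RNA. No siRNA sequence was used here. Whether the libraries of a group are separate cultures is not stated, and the p-values therefore cover the spread among these libraries alone, part of which may be technical.

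Cells divide transcription of the nuclear genome among 3 enzymes of many subunits. RNA polymerase I makes the precursor of the large ribosomal RNAs, RNA polymerase II makes messenger RNA, and RNA polymerase III makes transfer RNA and other short RNAs. Each enzyme has a catalytic pair of large subunits of its own, set on a platform of smaller ones, and several small subunits are built into more than one enzyme. A stalk binds the emerging RNA. Polymerases I and III also carry built-in counterparts of separate polymerase II initiation factors: a TFIIF-like pair in both, and a TFIIE-like set in polymerase III. POU2F1 encodes OCT1, a DNA-binding protein that recognises an octamer of bases and serves promoters of both polymerase II and polymerase III.

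Values are FPKM as deposited by the authors, fragments scaled to transcript length and to the mapped fragments of the library, so levels of different genes can be set side by side. Read counts cannot be read off FPKM, and the depth behind each value is unknown. Per library, between 11670 and 11853 annotated genes had at least 1 FPKM. POU2F1 itself had 1.87, 1.69 and 1.73 FPKM in siPOU2F1 replicates 1 to 3, against 4.16, 3.60 and 4.26 FPKM in sicontrol replicates 1 to 3, which is 44.0% of the control mean (log2 fold change -0.99, SE 0.14, limma adjusted p = 0.0333). That call was lost when any sicontrol library or siPOU2F1 replicate 1 or 2 was left out (adjusted p from 0.114 to 0.22), without the filter on low values (0.065) and with a replicate block (0.297). Without siPOU2F1 replicate 3 the limma adjusted p was 0.00982, in a fit that called 25.0% of all tested genes. With library weights it was 0.000406. By an exact two-sided permutation test p was 0.1, which is the lowest possible with 3 libraries a group. All 8 listed colorectal epithelial markers had a mean of at least 1 FPKM, from 3.09 FPKM for VIL1 to 1700 FPKM for KRT18. Their summed levels were 3850 to 5450 FPKM in siPOU2F1 and 2830 to 3710 FPKM in sicontrol. This sum, to which KRT18 adds much, therefore also differed between the groups, and its part in the results was not tested. Of the 9 listed markers of other cell types 2 reached that mean. The summed levels of the 9 were 8.96 to 9.60 FPKM in siPOU2F1 and 8.23 to 9.32 FPKM in sicontrol. CD68 was the highest of them at a mean of 5.48 FPKM, and PTPRC, the pan-leukocyte marker, was listed at 0. One library was closer to the libraries of the other group than to those of its own. Over all 11831 tested genes, siPOU2F1 replicate 3 correlated at r = 0.977 with sicontrol replicate 2 and at 0.946 and 0.948 with siPOU2F1 replicates 1 and 2, which correlated at 0.989 with each other. Genes are not independent replicates, so these values only describe the libraries, and results for the subunits are given with and without that library.

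The genes specific to polymerase II had higher median levels than those specific to polymerases I and III, in siPOU2F1 and in sicontrol alike. The 11 genes specific to polymerase III had a median mean level of 6.45 FPKM in siPOU2F1 and 8.0 FPKM in sicontrol, and the 11 specific to polymerase II had 29.5 FPKM in siPOU2F1 and 28.1 FPKM in sicontrol. The 6 specific to polymerase I had 9.10 FPKM in siPOU2F1 and 8.61 FPKM in sicontrol. The 5 genes whose products enter all 3 enzymes had 35.1 FPKM in siPOU2F1 and 31.2 FPKM in sicontrol, and the median of all tested genes was 11.1 FPKM over the 6 libraries. Within an enzyme the subunits were not level with each other: averaged over the 6 libraries, those of polymerase III ranged from 1.64 FPKM for POLR3B to 31.5 FPKM for CRCP, a 19.2-fold range, and those of polymerase I from 1.07 FPKM for POLR1H to 20.3 FPKM for POLR1E. The highest member was POLR1D, shared by polymerases I and III, at 122 FPKM. FPKM of single genes depend on the transcript length used for scaling, so the order within an enzyme rests on the authors' annotation.

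**Figure D1:**
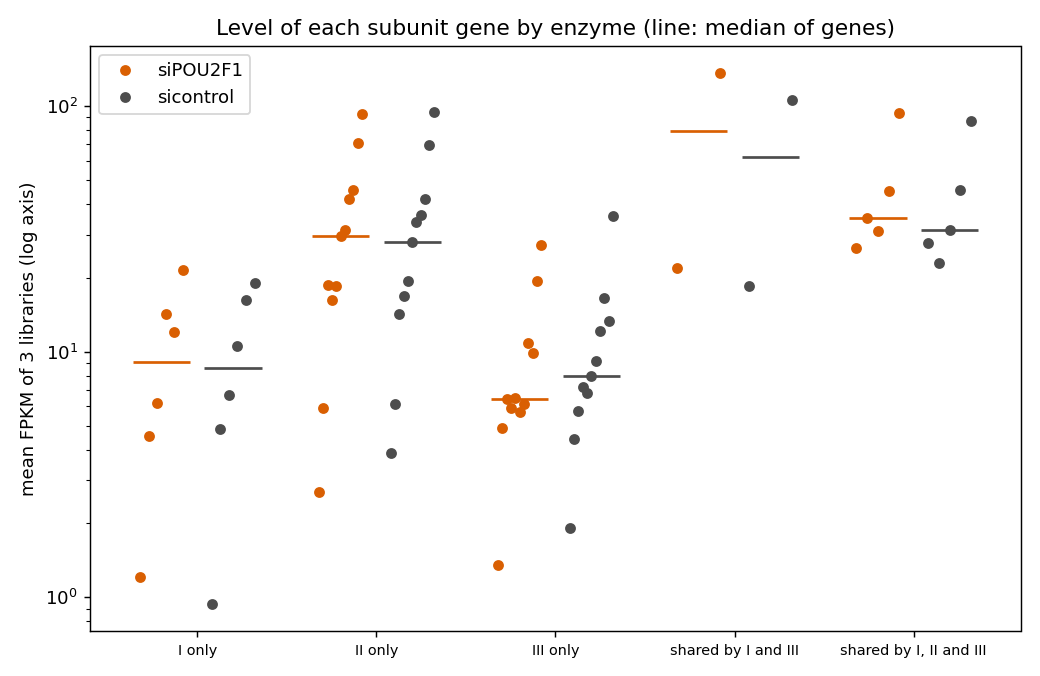
Mean level of each subunit gene in FPKM (log axis) in siPOU2F1 and sicontrol, 3 libraries each, by the enzyme or enzymes the product belongs to, with the median over genes as a line. The polymerase II genes have medians of 29.5 FPKM in siPOU2F1 and 28.1 FPKM in sicontrol, above the polymerase III genes at 6.45 FPKM in siPOU2F1 and 8.0 FPKM in sicontrol.

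All 35 members passed the filter of a mean of at least 1 FPKM, and none was called at an adjusted p under 0.05 (limma, Benjamini-Hochberg adjustment over all tested genes), where 1.24% of all tested genes were called. At an unadjusted p under 0.05 the count was 6 members (17.1%), against 18.1% of all tested genes. The groups did not overlap for 6 members (17.1%), 3 of them higher and 3 lower in siPOU2F1, against 23.4% of all tested genes. None of these shares is above the background of the comparison. Of the 35 log2 fold changes, 15 were positive and 20 negative with a median of -0.055, against 5739 positive, 6092 negative and a median of -0.013 over all tested genes. Without siPOU2F1 replicate 3, 10 members were called (28.6%), 3 higher and 7 lower, where 25.0% of all tested genes were called, so that share too is near the background.

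**Figure D2:**
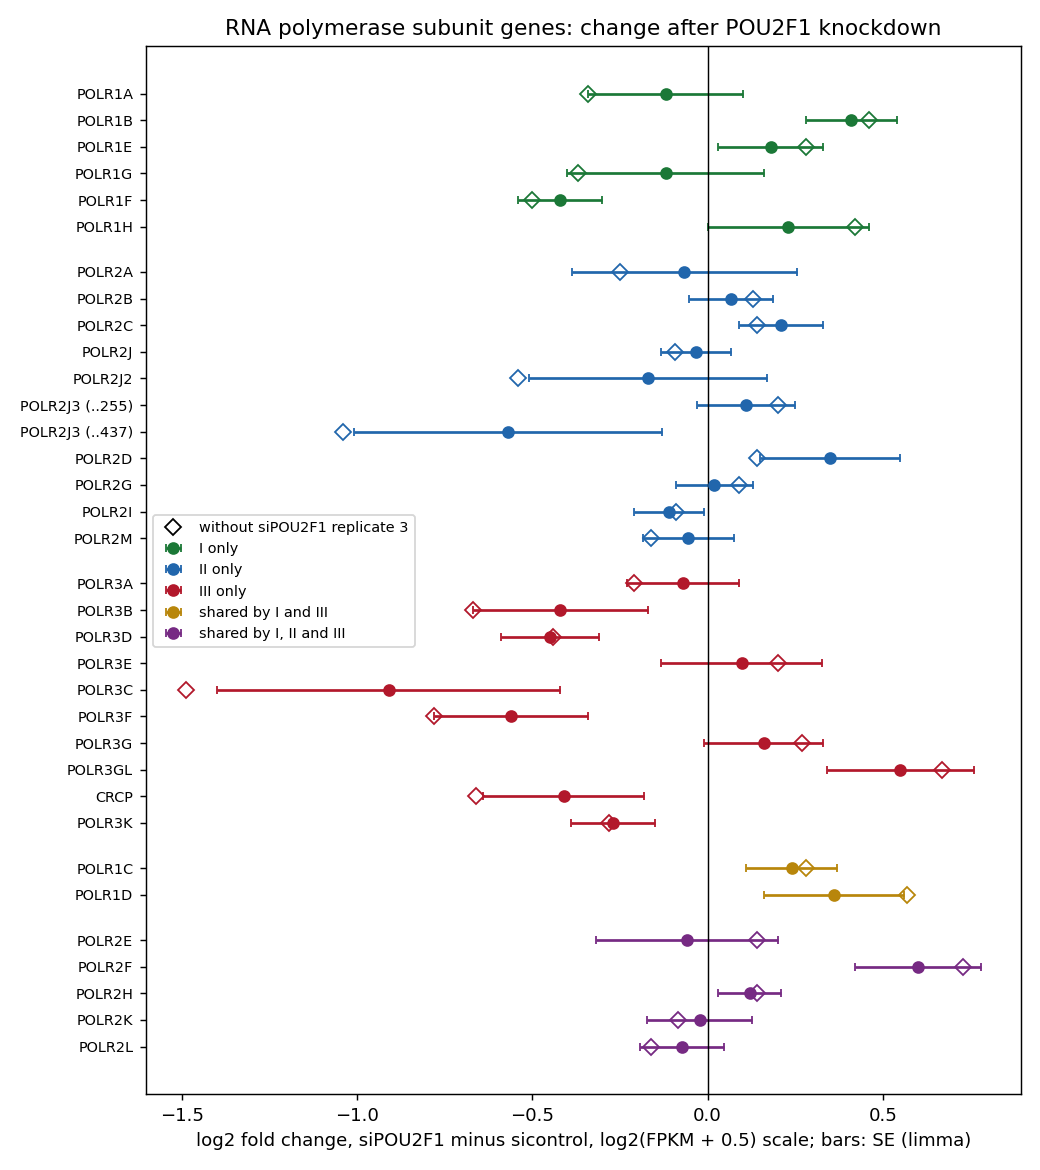
Log2 fold change (siPOU2F1 minus sicontrol, log2(FPKM + 0.5) scale) of 34 of the subunit genes with its SE from limma, grouped and coloured by enzyme, with open diamonds for the fit without siPOU2F1 replicate 3. Of the 10 polymerase III genes drawn 7 lie left of zero and POLR3C is the farthest left at -0.91, while POLR2F at 0.60 and POLR3GL at 0.55 are the farthest right.

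Of the 5 subunits common to all 3 enzymes, small proteins that pack around the catalytic core, POLR2F differed most. POLR2F had 40.1, 36.2 and 29 FPKM in siPOU2F1 replicates 1 to 3, against 18.7, 23.2 and 27.0 FPKM in sicontrol replicates 1 to 3. Every siPOU2F1 library lay above every sicontrol library, though siPOU2F1 replicate 3 and sicontrol replicate 3 were close. The mean was 35.1 ± 5.63 FPKM in siPOU2F1 and 23.0 ± 4.15 FPKM in sicontrol (SD, n = 3 each), and the log2 fold change of 0.60 (SE 0.18) missed the threshold (limma adjusted p = 0.156). Without siPOU2F1 replicate 3 it was 0.73 (SE 0.16, adjusted p = 0.0235). The other 4 common genes, POLR2E, POLR2H, POLR2K and POLR2L, had log2 fold changes from -0.074 to 0.12. For POLR2H, the most tightly measured of them, the 95% interval of the difference ran from -0.097 to 0.33, and for POLR2E, which varied between 32.6 and 64.3 FPKM within siPOU2F1, it ran from -0.68 to 0.57.

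The promoter of POLR2F is shown because this gene had the largest positive difference of the 35 and the factor that was lowered binds DNA. Capitals mark the ETS core CCGGAAG, which begins at base 210 of the window, at -41 from the annotated start. The window is chr22:37953449-37953748, plus strand, GRCh38.p14, from RefSeq, with 250 bases before and 50 bases after the start, written 5′ to 3′. A further window of this gene, with an earlier start, is not printed.
POLR2F promoter: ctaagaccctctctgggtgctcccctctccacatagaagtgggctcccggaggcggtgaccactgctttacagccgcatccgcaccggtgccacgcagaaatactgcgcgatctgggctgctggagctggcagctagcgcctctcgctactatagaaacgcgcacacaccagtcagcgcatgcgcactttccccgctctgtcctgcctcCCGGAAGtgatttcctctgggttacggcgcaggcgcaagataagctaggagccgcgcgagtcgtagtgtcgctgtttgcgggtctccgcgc
The octamer ATGCAAAT recognised by OCT1 is not among these letters on either strand. RefSeq promoter windows of the same length were found for 24 of the 34 symbols, and none of their 30 windows held the octamer. It was present in only 1.77% of all 35116 windows, so none among 30 is not a difference from that background. The ETS core was present for 9 of the 24 genes (37.5%) and in 10.3% of all windows, the E-box CACGTG for 4 (16.7%) against 7.26%, the CCAAT box (letters CCAAT) for 6 (25.0%) against 34.6%, and the TATA box (letters TATAAA) for 1, POLR2M, against 11.5%. Both strands were searched and none of these motifs contains another. Members with 2 windows count once if either holds the motif, which raises their share relative to single windows. The background was every window, whether or not the gene was expressed here. Member windows were richer in G and C (median 61.8% against 58.7% of bases), and the part of this in the shares was not tested.

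POLR1C and POLR1D form the assembly platform that polymerases I and III share. POLR1C had 21.7, 23.4 and 20.7 FPKM in siPOU2F1 replicates 1 to 3, against 15.8, 20.4 and 19.5 FPKM in sicontrol replicates 1 to 3, with no overlap between groups, although the lowest siPOU2F1 and the highest sicontrol library nearly met (log2 fold change 0.24, SE 0.13, limma adjusted p = 0.355). POLR1D had 158.1, 153.4 and 101.0 FPKM in siPOU2F1 and 115.0, 87.4 and 114.2 FPKM in sicontrol. Its siPOU2F1 replicates 1 and 2 were above all controls and replicate 3 was inside their range, so the log2 fold change was 0.36 (SE 0.20, adjusted p = 0.365) with that library and 0.57 (SE 0.14, adjusted p = 0.0299) without it.

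Among the subunits found only in polymerase I, POLR1B and POLR1F had separate groups and opposite signs. POLR1B, the second largest subunit and part of the catalytic centre, had 15.3, 13.9 and 13.3 FPKM in siPOU2F1 replicates 1 to 3, against 9.81, 9.80 and 12.1 FPKM in sicontrol replicates 1 to 3. Its mean was 14.2 ± 1.05 FPKM in siPOU2F1 and 10.6 ± 1.34 FPKM in sicontrol (SD, n = 3 each; log2 fold change 0.41, SE 0.13, limma adjusted p = 0.177, and 0.46 with adjusted p = 0.0487 without siPOU2F1 replicate 3). POLR1F, a stalk subunit (chromosome 7, 19695462 to 19709087, minus strand, GRCh38), had 10.9, 11.8 and 13.3 FPKM in siPOU2F1 and 16.6, 15.4 and 16.7 FPKM in sicontrol. Its mean was 12.0 ± 1.20 FPKM in siPOU2F1 and 16.2 ± 0.741 FPKM in sicontrol (SD, n = 3 each), 74.0% of control, and its log2 fold change of -0.42 (SE 0.12) had the lowest p of all members yet was not called (limma adjusted p = 0.140, and 0.0210 without siPOU2F1 replicate 3, where the value was -0.50).

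The largest subunit, POLR1A, had 5.37, 4.86 and 8.38 FPKM in siPOU2F1 and 5.72, 7.88 and 6.35 FPKM in sicontrol, and siPOU2F1 replicate 3 was the highest of all 6 libraries. Its log2 fold change of -0.12 (SE 0.22, 95% interval -0.65 to 0.41) changed sign, to 0.025 without siPOU2F1 replicate 2 and to 0.0022 without sicontrol replicate 2. The TFIIF-like pair, POLR1E and POLR1G, had 0.18 (SE 0.15) and -0.12 (SE 0.28). POLR1H, which provides the RNA cleavage activity, was the lowest member, with 1.58, 1.26 and 0.788 FPKM in siPOU2F1 and 0.898, 0.804 and 1.11 FPKM in sicontrol (log2 fold change 0.23, SE 0.23). The values of POLR1G and POLR1H carry a doubt about read assignment: 86.9% of the 50-base words in the POLR1G transcript also occur in transcripts annotated to ERCC1 on the opposite strand, and 44.8% of the exonic bases of POLR1H overlap ZNRD1ASP on the opposite strand. Whether the authors' counting used strand is not known here. The 6 polymerase I genes together had 3 positive and 3 negative values and a median log2 fold change of 0.032.

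None of the 11 polymerase II genes had an unadjusted p under 0.05 or separate groups, against 18.1% and 23.4% of all tested genes, and their median log2 fold change was -0.033. POLR2A, the largest subunit and the one that carries the C-terminal repeat domain, had 11.9, 20.8 and 23.1 FPKM in siPOU2F1 replicates 1 to 3, against 15.4, 27.8 and 15.3 FPKM in sicontrol replicates 1 to 3. It varied about as widely within each group as between all libraries, and the 95% interval of its log2 fold change of -0.066 ran from -0.81 to 0.68, with 0.22 without siPOU2F1 replicate 1 and 0.21 without sicontrol replicate 2. POLR2B, the second largest subunit, was steadier at 31.6, 30.0 and 26.8 FPKM in siPOU2F1 and 26.4, 26.7 and 31.3 FPKM in sicontrol (0.068, interval -0.21 to 0.35). For POLR2G and POLR2J, a stalk and a platform subunit at 70.3 and 93.5 FPKM over all libraries, the intervals were -0.24 to 0.28 and -0.27 to 0.20, much narrower than that of POLR2A.

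POLR2C, the partner of POLR2J in the platform, had the lowest p of this group, with 41.0, 38.4 and 46.6 FPKM in siPOU2F1 and 35.9, 39.4 and 33.1 FPKM in sicontrol. The groups overlapped, and the log2 fold change was 0.21 (SE 0.12, limma adjusted p = 0.365). POLR2D, the other stalk subunit, had 0.35 (SE 0.20), which rested on 24.8 FPKM in siPOU2F1 replicate 3 and was 0.14 without it. POLR2I, at the site where transcripts are proofread and cleaved, had -0.11 (SE 0.10), with 59.8% of its 50-base words shared with genes on the opposite strand, TBCB among them, and POLR2M, a polymerase II-associated protein that restrains initiation, had -0.055 (SE 0.13). The POLR2J copies on chromosome 7 are uncertain: 61.0% of the 50-base words of the POLR2J transcript, 97.5% of those of POLR2J2 and 92.3% and 99.2% of those of the 2 POLR2J3 rows occur in other genes, among them these same copies. The POLR2J3 row ENSG00000285437 had 1.40, 1.68 and 4.98 FPKM in siPOU2F1 and 3.11, 5.73 and 2.79 FPKM in sicontrol, and was the only polymerase II row called without siPOU2F1 replicate 3 (log2 fold change -1.04, limma adjusted p = 0.0413). POLR2J2 had -0.17 (SE 0.34) and the POLR2J3 row ENSG00000168255 had 0.11 (SE 0.14). Without the copies POLR2J2 and POLR2J3 the 8 remaining polymerase II genes had a median of -0.0067.

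Polymerase III had the lowest median of the 3 enzymes. Of its 11 specific genes 8 had negative and 3 positive log2 fold changes, with a median of -0.30, where all tested genes had -0.013, but none was called by limma. At an unadjusted p under 0.05 there were 3 of the 11 (POLR3D and POLR3F lower, POLR3GL higher), against 18.1% of all tested genes. Groups did not overlap for 2 of the 11, both lower in siPOU2F1, against 23.4% of all tested genes. Without siPOU2F1 replicate 3 the median was -0.44 and 5 of the 11 were called, all lower, where the median of all tested genes was -0.037 and 25.0% of them were called, 1855 lower and 1099 higher. In siPOU2F1 replicates 1 and 2, 10 of the 11 lay on one side of all 3 controls (8 lower and 2 higher), against 23 of all 35 members (65.7%) and 62.6% of all tested genes. The third siPOU2F1 library lay inside the control range for 7 of the 11 (63.6%), against 42.7% of all tested genes. In bulk RNA, fewer cells expressing a gene and less of its RNA per cell cannot be told apart.

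The 2 polymerase III genes with separate groups were POLR3D and POLR3K. POLR3D belongs to the TFIIF-like pair and had 5.95, 5.50 and 5.66 FPKM in siPOU2F1 replicates 1 to 3, against 7.50, 9.32 and 7.20 FPKM in sicontrol replicates 1 to 3. The log2 fold change was -0.45 (SE 0.14, limma adjusted p = 0.168) with siPOU2F1 replicate 3 and -0.44 (adjusted p = 0.0656) without it, and the mean was 5.70 ± 0.228 FPKM in siPOU2F1 and 8.0 ± 1.15 FPKM in sicontrol (SD, n = 3 each), 71.3% of control. POLR3K, the RNA cleavage subunit also needed for termination, had 6.06, 5.60 and 5.98 FPKM in siPOU2F1 and 6.64, 7.39 and 7.51 FPKM in sicontrol (-0.27, SE 0.12, adjusted p = 0.291, and -0.28 with adjusted p = 0.127 without siPOU2F1 replicate 3). POLR3E, the partner of POLR3D, had 0.098 (SE 0.23), and its 6.76 FPKM in siPOU2F1 replicate 1 was the highest of the 6 libraries.

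The TFIIE-like set, which opens DNA at the promoter, held both the largest negative and the largest positive values of polymerase III. POLR3C had 5.37, 5.31 and 19.0 FPKM in siPOU2F1 replicates 1 to 3, against 16.7, 21.4 and 11.3 FPKM in sicontrol replicates 1 to 3. The first 2 siPOU2F1 libraries were far below every control and the third was above 2 of the 3 controls, so the log2 fold change was -0.91 (SE 0.49, limma adjusted p = 0.353) over all libraries and -1.49 (SE 0.25, adjusted p = 0.0124) without siPOU2F1 replicate 3. POLR3F had 5.04, 5.15 and 8.23 FPKM in siPOU2F1 and 8.87, 10.9 and 7.71 FPKM in sicontrol, with the same pattern (-0.56, SE 0.22, adjusted p = 0.243, and -0.78 with adjusted p = 0.0203 without siPOU2F1 replicate 3).

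The third place in that set is filled by either of a pair of related proteins, POLR3G or POLR3GL, and POLR3G is known as the form of stem cells and many tumours while POLR3GL is found more broadly. POLR3GL had 20.9, 21.3 and 16.3 FPKM in siPOU2F1, against 12.4, 10.4 and 17.4 FPKM in sicontrol, overlapping only through the third library of each group (log2 fold change 0.55, SE 0.21, limma adjusted p = 0.232, and 0.67 with adjusted p = 0.0554 without siPOU2F1 replicate 3). POLR3G had 6.68, 7.27 and 5.41 FPKM in siPOU2F1 and 6.14, 4.71 and 6.39 FPKM in sicontrol (0.16, SE 0.17). POLR3GL was the more abundant form in every library. The ratio of POLR3GL to POLR3G was 3.12, 2.93 and 3.01 in siPOU2F1 replicates 1 to 3, against 2.02, 2.21 and 2.72 in sicontrol replicates 1 to 3. The ratio groups did not overlap, siPOU2F1 replicate 3 included, with means of 3.02 ± 0.0957 in siPOU2F1 and 2.32 ± 0.362 in sicontrol (SD, n = 3 each). Among single tested genes 23.4% had groups that did not overlap, and no such share was found for ratios of 2 genes. This ratio is a description, with no test.

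**Figure D3:**
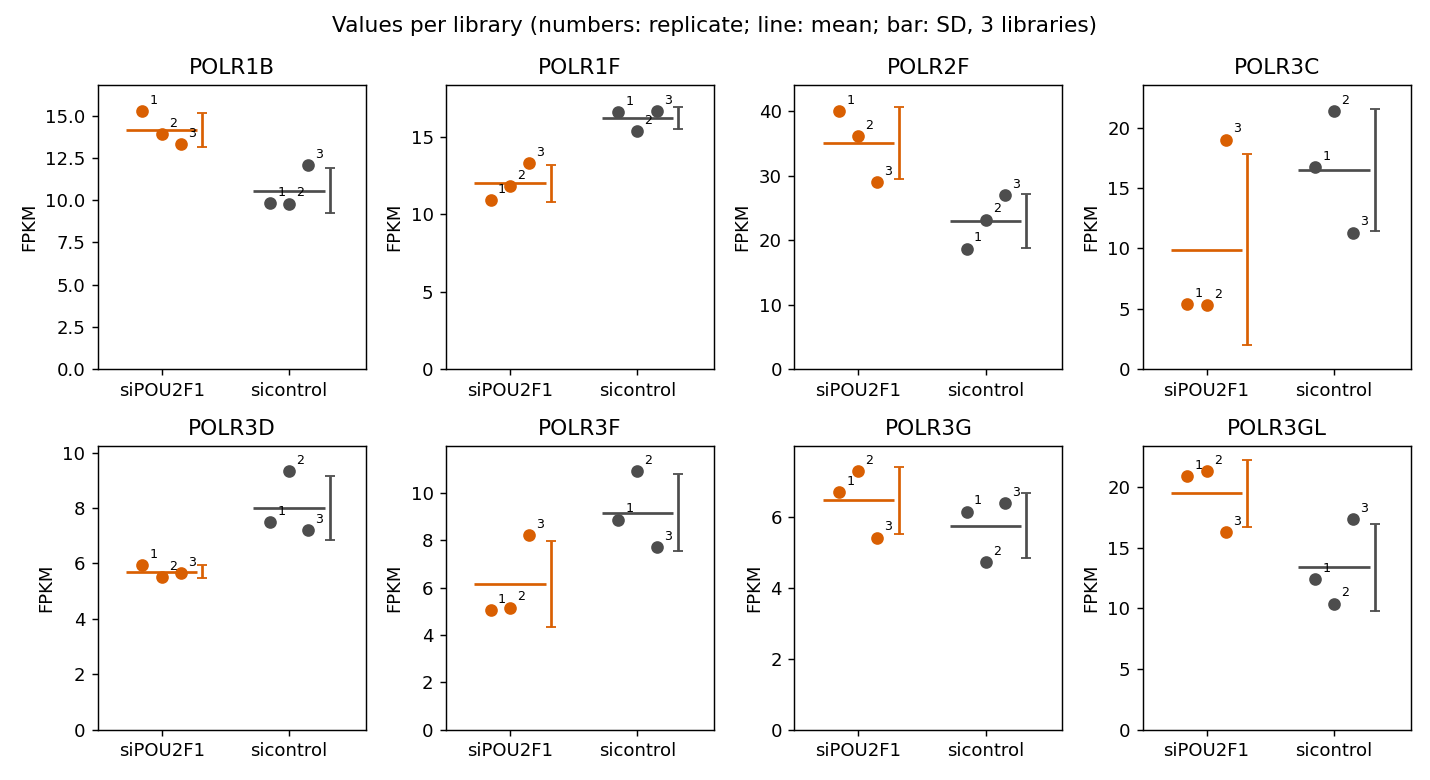
FPKM in each library for 8 of the subunit genes, none of them called with all libraries. Each panel has siPOU2F1 left and sicontrol right, with the replicate number at each point, a line at the mean and a bar for the SD of 3 libraries. POLR3D holds 5.50 to 5.95 FPKM in all siPOU2F1 libraries, whereas POLR3C has 19.0 FPKM in siPOU2F1 replicate 3 and 5.37 and 5.31 FPKM in replicates 1 and 2.

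POLR3C and POLR3GL lie near each other on chromosome 1, at 145824088 to 145842505 and 145964702 to 145978848, both on the plus strand (GRCh38), and had the lowest and the highest log2 fold change of the polymerase III genes. Their RefSeq promoter windows are printed for that reason, from GRCh38.p14 at chr1:145823950-145824249 and chr1:145964440-145964739, written 5′ to 3′. In POLR3C capitals mark an E-box that begins at base 55 of the window, at -196 from the start, and an ETS core that begins at base 226, at -25. In POLR3GL they mark 2 CCAAT boxes, on the minus strand at base 205 (-46) and on the plus strand at base 223 (-28). POLR3C has a further window with a later start, which is not printed.
POLR3C promoter: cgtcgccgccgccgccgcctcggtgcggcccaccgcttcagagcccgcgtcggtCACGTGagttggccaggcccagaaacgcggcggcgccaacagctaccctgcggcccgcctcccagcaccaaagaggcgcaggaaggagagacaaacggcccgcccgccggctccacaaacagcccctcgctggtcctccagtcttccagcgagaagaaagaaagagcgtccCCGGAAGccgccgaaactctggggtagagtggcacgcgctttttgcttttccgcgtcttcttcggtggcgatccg
POLR3GL promoter: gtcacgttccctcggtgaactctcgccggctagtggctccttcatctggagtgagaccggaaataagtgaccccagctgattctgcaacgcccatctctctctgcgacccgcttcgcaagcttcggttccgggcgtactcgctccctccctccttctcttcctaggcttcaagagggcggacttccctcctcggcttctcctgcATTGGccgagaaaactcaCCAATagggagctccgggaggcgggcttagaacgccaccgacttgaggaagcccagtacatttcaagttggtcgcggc
Neither window holds the octamer ATGCAAAT on either strand, and the absence of these letters from 300 bases says nothing about binding elsewhere.

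The catalytic pair of polymerase III and the stalk gene CRCP followed the same division between libraries. POLR3A, the largest subunit, had 6.14, 5.48 and 7.90 FPKM in siPOU2F1 replicates 1 to 3, against 6.31, 7.37 and 6.69 FPKM in sicontrol replicates 1 to 3. Its log2 fold change of -0.069 (SE 0.16, 95% interval -0.45 to 0.31) became 0.038 without siPOU2F1 replicate 2. POLR3B, the second largest subunit, was the lowest polymerase III gene, with 1.12, 0.913 and 2.03 FPKM in siPOU2F1 and 1.65, 2.26 and 1.86 FPKM in sicontrol (-0.42, SE 0.25, limma adjusted p = 0.393, and -0.67 with adjusted p = 0.0392 without siPOU2F1 replicate 3). CRCP had 23.9, 20.7 and 37.2 FPKM in siPOU2F1 and 35.2, 42.2 and 29.7 FPKM in sicontrol, with siPOU2F1 replicate 3 inside the control range. Its log2 fold change was -0.41 (SE 0.23, adjusted p = 0.374), and -0.66 (adjusted p = 0.0307) without that library.

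The enzymes can be set side by side by the median of their genes in each library, as a difference from the sicontrol mean of each gene. For polymerase III this median was -0.39, -0.49 and 0.069 in siPOU2F1 replicates 1 to 3, against -0.080, 0.20 and -0.030 in sicontrol replicates 1 to 3. For polymerase II it was -0.039, 0.014 and 0.16 in siPOU2F1 and -0.027, -0.044 and 0.056 in sicontrol, and for polymerase I it was 0.067, -0.055 and 0.15 in siPOU2F1 and -0.074, -0.086 and 0.11 in sicontrol. Polymerase III was thus the only one of the 3 with medians beyond the control range in siPOU2F1 replicates 1 and 2, and siPOU2F1 replicate 3 was inside that range. In siPOU2F1 replicate 3 the medians of polymerases I and II lay above their controls. The median of all tested genes was -0.042, -0.027 and 0.04 in siPOU2F1, against -0.003, 0.0013 and 0.0085 in sicontrol. It too lay below its controls in siPOU2F1 replicates 1 and 2, though by less than that of polymerase III. The POLR1C and POLR1D pair had 0.41, 0.44 and 0.054 in siPOU2F1, against -0.040, -0.059 and 0.099 in sicontrol. Although its products are part of polymerase III, its siPOU2F1 replicates 1 and 2 lay above the controls, and replicate 3 was inside their range. The difference between enzymes was not tested, since the genes of an enzyme are not replicates.

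**Figure D4:**
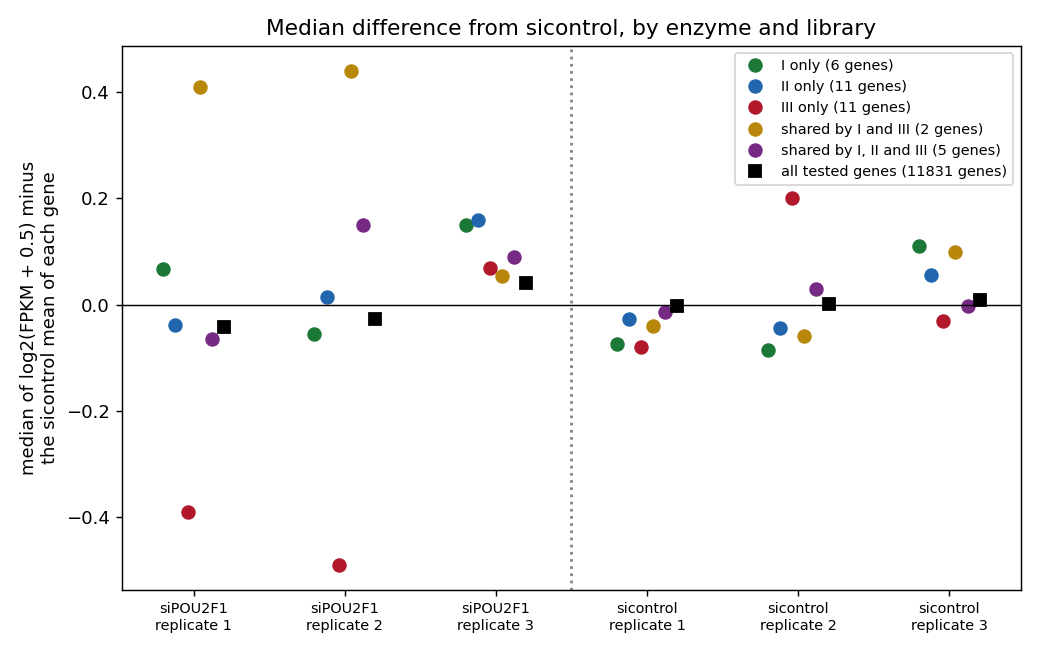
Median over the genes of each enzyme group of log2(FPKM + 0.5) minus the sicontrol mean of the gene, in each of the 6 libraries, with all 11831 tested genes as squares. The polymerase III median is -0.39 and -0.49 in siPOU2F1 replicates 1 and 2 and 0.069 in replicate 3, and the polymerase II median stays between -0.044 and 0.16 in all libraries.

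Factors that work with the enzymes gave no calls with all libraries. Of 11 tested polymerase I factors, 24 general polymerase II factors, 13 polymerase III factors, 15 genes of polymerase assembly and nuclear import and 6 of mitochondrial transcription, none was called by limma, and 1, 2, 0, 2 and 1 of them, in that order, had an unadjusted p under 0.05, where 1.24% of all tested genes were called and 18.1% had such a p. The groups did not overlap for 2, 2, 5, 2 and 1 of them, in the same order, against 23.4% of all tested genes. Without siPOU2F1 replicate 3, 4, 6, 3, 4 and 0 of them were called, in the same order, against 25.0% of all tested genes. The list medians lay between -0.12 and -0.025 (TBP, which serves all 3 enzymes, is in 3 of the lists). SUPT4H1, a small subunit of the elongation factor DSIF, had 26.0 ± 0.656 FPKM in siPOU2F1 and 35.7 ± 1.46 FPKM in sicontrol (SD, n = 3 each; log2 fold change -0.45, SE 0.093, limma adjusted p = 0.0744). RPAP3, a chaperone adaptor in the assembly of polymerases, had 20.4 ± 2.66 FPKM in siPOU2F1 and 31.0 ± 3.82 FPKM in sicontrol (-0.60, SE 0.14, adjusted p = 0.109), and PDRG1, which works in the same assembly complex, had -0.80 (SE 0.27, adjusted p = 0.191). Among the polymerase III factors the lowest p belonged to BRF1, a subunit of TFIIIB, at -0.28 (SE 0.13, adjusted p = 0.315).

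Members seldom carried the 7-base words that an earlier search of these same libraries had linked to lower expression. Because the words came from these same libraries, the members add no independent evidence on them. Of 33 members with a searchable 3′ UTR, 1 held the word AACTGCA (3.03%), POLR3D, against 11.7% of 11384 tested genes. The word AGAATGA was present in 2 of the 33 (6.06%), POLR1F and POLR3A, against 13.8%. Members also had shorter 3′ UTRs, with a median of 651 bases against 870 bases. The AGAATGA sites are given, because POLR1F had the lowest p of all members, 5′ to 3′ on the minus strand of GRCh38 with the word in capitals, at chromosome 7, 19697974 to 19697980, and at chromosome 10, 77976532 to 77976538.
POLR1F site: tatattactaaAGAATGAgttaagtttga
POLR3A site: ggatctgtgttAGAATGAgtgctttccct
POLR1F was lower in every siPOU2F1 library than in any sicontrol library and POLR3A was not, so AGAATGA was present with either pattern. POLR3D, which held AACTGCA, was also lower in every siPOU2F1 library than in any sicontrol library. POLR3K had such separate lower groups too and held neither word. Whether the words go with the differences was not tested. POLR3C and POLR3F, with the lowest fold changes of the polymerase III genes, held neither word.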

How the data were processed

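PolyA RNA of HCT116 cells was sequenced in 6 libraries, 3 siPOU2F1 and 3 sicontrol, grouped by their titles. The authors deposited 1 table of FPKM per library, and StringTie 2.1.2, HISAT2 2.0.4, Bowtie2 2.2.5 and hg38 are listed, per the submitters' processing notes, with no role. Of 22782 rows, the 20474 annotated genes were used as deposited and 2308 assembled transcripts were left out. No 2 libraries held identical values.

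Tests used log2(FPKM + 0.5), which understates changes of low genes, for the 11831 genes that averaged 1 FPKM or more. They were fitted by limma 3.58.1 (R 4.3.3), with its trend option and no covariate, and p was adjusted over all of them by Benjamini-Hochberg. Each log2 fold change is siPOU2F1 minus sicontrol, and calls needed an adjusted p under 0.05. The fit was tested on simulated data with 200 changed genes. It called 7.06% of log2 changes of 0.5, 49.0% of 1.0 and 87.5% of 2.0, so it missed most changes of 0.5. Alternatives were the pseudocount, the filter, 2 scalings, library weights, a replicate block and each library left out.

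Values per library were given for the catalytic pairs, POLR3G, POLR3GL, members with an unadjusted p under 0.05 and the lowest p of each group. Further values of single libraries (POLR1D, POLR1H, POLR2D, POLR2E, POLR2J3, POLR3C, POLR3E, POLR3K and CRCP) and the printed promoters were chosen after their values were seen. Members, lists and words were chosen with earlier results of these data known. Positions, overlaps and 3′ UTRs came from GENCODE release 29, with the transcript of longest coding sequence, and promoters from RefSeq. One polymerase III gene is not reported here by itself and enters only counts and medians. RefSeq protein sequences were not used here. Tables and figures were made in Python 3.11.15 with scipy 1.17.1, pandas 2.3.3 and matplotlib 3.10.9.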

Additional observations from a re-analysis of the deposited data

How the results depend on the processing

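With all libraries 147 genes and 0 subunit genes were called by limma (6 subunit genes at an unadjusted p under 0.05). With library weights 5963 of 11831 tested genes and 15 of 35 subunit genes were called, so the subunit genes had the lower share. Medians were then 0.093 for the subunits common to the 3 enzymes and 0.060 for those of polymerase II. POLR2A, which had been negative, had 0.097 with these weights. Those weights were estimated from the same data and ran from 0.145 for siPOU2F1 replicate 3 to 3.82 for siPOU2F1 replicate 2. Without a filter 72 genes were called, and POU2F1 kept -0.99 with an adjusted p of 0.065. With the replicate block 0 genes were called (1208 at an unadjusted p under 0.05, 2 of them subunit genes) and POU2F1 had -0.99 with an adjusted p of 0.297. Deviations of same-numbered libraries from their group means correlated at 0.13, -0.54 and -0.51, and no siPOU2F1 library correlated best with its own number. Deviations within a group of 3 depend on each other, so these values cannot tell whether the numbers pair the libraries.

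Leaving out 1 library at a time gave 0 to 2954 called genes (0 without siPOU2F1 replicate 1, siPOU2F1 replicate 2 or sicontrol replicate 1, where 1255, 1176 and 1333 had an unadjusted p under 0.05, and 5 and 9 without sicontrol replicates 2 and 3), 0 to 10 called subunit genes, log2 fold changes of -1.06 to -0.95 for POU2F1 and a median of -0.010 to 0.14 for the common subunits. All of these calls of subunit genes came from the fit without siPOU2F1 replicate 3. POU2F1 had adjusted p from 0.114 to 0.22 without any of the other 5. POLR1A ranged from -0.34 to 0.025, POLR2A from -0.25 to 0.22 and POLR3A from -0.21 to 0.038, and the polymerase III median stayed between -0.44 and -0.23. The other pseudocounts, filters and scalings called no subunit gene, and the cause of these differences was not tested. FPKM without counts leave the depth behind each value unknown.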
